A study of Mus musculus with 30 samples.

Results

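The 3 Mertk knockout mouse lines were pooled and compared with C57BL/6 (B6 WT) in RNA-seq libraries of retinal pigment epithelium (RPE) at postnatal day 25 (P25). The comparison held 18 of the 30 libraries of the series: 12 knockout libraries, of which 6 were Mertk-/-V1, 3 Mertk-/-V2 and 3 Mertk-/-V3, and 6 B6 WT libraries. Each knockout group was given equal weight in the pooled value, whatever its number of libraries, and a gene was followed further when it moved the same way in all 3 groups. All RPE was used directly from the mouse, without culture or treatment, and the labels give every group the strain C57BL/6J. Mertk-/-V1 came from 129P2 embryonic stem cells in which an exon of the kinase domain was replaced by a neomycin cassette. After backcrossing it still carries a 129P2 segment of chromosome 2 that includes Mertk and Tyro3. Mertk-/-V2 lost a kinase-domain exon when a floxed allele, made in C57BL/6NJ embryos, was excised in the germline by tamoxifen-induced Rosa26-ERT2Cre, which was then bred out. Mertk-/-V3 was made by CRISPR/Cas9 in C57BL/6NJ eggs by targeting a pair of early exons. Each knockout is a single line, and the B6 WT mice share neither the 129P2 segment nor the C57BL/6NJ contribution, so an effect of the Mertk mutation and an effect of what else a line carries cannot be told apart within 1 line. The pooled comparison asks a narrower question: which transcripts moved alike in 3 lines made in different ways. Mertk-/-V2 and Mertk-/-V3 both hold a C57BL/6NJ contribution, and all 3 lines are set against the same 6 B6 WT libraries. In a change common to the lines, these shared features and the Mertk mutation cannot be told apart.

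MERTK is a receptor tyrosine kinase of the TAM family (TYRO3, AXL, MERTK). On the apical face of the RPE it drives the daily engulfment of shed photoreceptor outer segments, and in macrophages and microglia it clears apoptotic cells and restrains interferon and Toll-like receptor signalling. Interferons act through the JAK-STAT pathway on antiviral effector genes, many of which carry interferon-stimulated response elements in their promoters. Complement proteins and Fc receptors belong to the innate clearance machinery of microglia and macrophages, which lie next to the RPE in the subretinal space and choroid.

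The libraries held 14137666 to 34124049 reads assigned to genes. Rpe65, the retinoid isomerohydrolase that marks the RPE, was high in every library, with normalized counts (read counts divided by a size factor for each library) of 58354 to 105278 (median 82891) in B6 WT and 13235 to 99899.9 in the knockouts. Photoreceptor RNA came along in varying amounts. The summed level of 20 rod genes ran from 61171 to 1123530 normalized counts, and the first principal component of the 18 libraries correlated with the log2 rod level at r = 0.97 (a description, n = 18). The 6 libraries richest in rod transcripts were B6 WT replicates 5 and 6, Mertk-/-V1 replicates 5 and 6, Mertk-/-V2 replicate 2 and Mertk-/-V3 replicate 1. The mean log2 level of macrophage and microglia markers was also higher in most knockout libraries, as given with the Fc receptor genes. In bulk RNA, more cells of a type and more RNA per cell cannot be told apart.

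Of 18832 genes tested, the pooled knockouts differed from B6 WT in 24 (0.127%; adjusted p under 0.05, limma), of which 19 were higher (0.101%) and 5 lower (0.0266%). A change of at least 1.25 on the log2 scale was also met by 9 of them (0.0478%), 6 higher and 3 lower. Of the 24, 20 had the same sign in all 3 knockouts, 19 higher and 1 lower. The 3 knockouts share the 6 B6 WT libraries and the 24 were called on the mean of the 3, so a shared sign is favoured by how the genes were chosen and is given as a description. Over all genes tested 39.1% had the same sign in all 3, 23.4% higher and 15.6% lower, which is no measure of chance for genes chosen this way. The stricter condition, an unadjusted p under 0.05 in each of the 3 knockouts with 1 direction, was met by 77 genes (0.409%), 72 of them higher (0.382%) and 5 lower (0.0266%), and 13 of the 77 were among the genes called in the pooled comparison. After adjustment of the largest of the 3 p-values, 0 genes passed in limma, edgeR or DESeq2, which put 77, 71 and 81 genes past the unadjusted condition. The 13 were the interferon effectors Mx1, Ifit1, Trim30a, Ifi44, Cmpk2 and Apol9b, the complement component C4b, the Fc receptor Fcgr1, the myeloid signalling genes Myo1f and Cyth4, and the regulators Cebpd, Arid5a and Esr1. All 13 were higher in the knockouts. Without the 6 rod-rich libraries, an alternative chosen after seeing the data, 622 genes were called, 127 higher and 495 lower, 475 of them with the same sign in all 3, and 18 of the 20 remained among those. With the replicate number as a block 2661 genes were called, 1037 higher and 1624 lower, 2143 of them with the same sign in all 3, and all 20 remained among those. With a term for replicates 1 to 3 against 4 to 6, also chosen after seeing the data, 365 were called, 190 higher and 175 lower, and all 20 were again among the 337 with the same sign. Same-numbered libraries deviated together from their group means, at a correlation above 0.1 in every pair, between B6 WT and Mertk-/-V1 but not between any other groups, and replicates 5 and 6 of both these groups are among the 6 rod-rich libraries. With B6 WT replicates 1 to 3 as the only controls 11 genes were called, and with replicates 4 to 6 as the only controls 3 were called. Leaving out B6 WT replicate 1, 2 or 3 alone left 11, 13 or 14 calls, of which 8, 11 or 12 had the same sign in all 3, and without Mertk-/-V3 replicate 2 the stricter condition was met by 46 genes. C4b, Cfi, Trim30a, Ifit1, Ifi44, Apol9b and Cebpd were called in all 18 fits that left out 1 library, whereas Apol9a was called in 3 of the 18, Fcer1g in 6, Cmpk2 in 9 and Rab37 in 10.

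**Figure D1:**
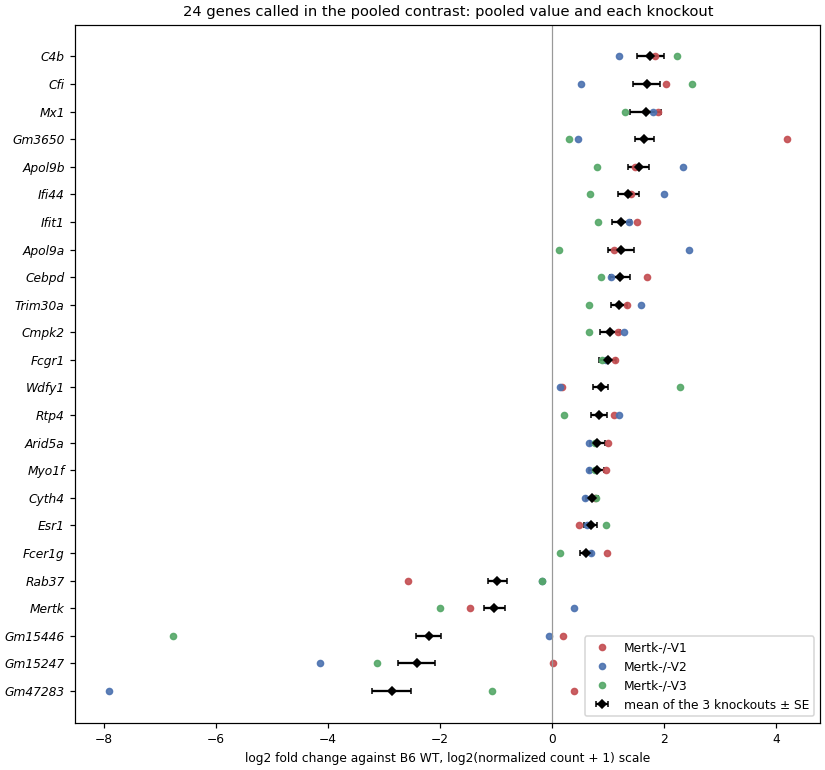
Pooled log2 fold change with its standard error (black diamonds) and the log2 fold change of each knockout (coloured points) against B6 WT, for the 24 genes called in the pooled comparison. For Fcgr1, Cyth4, Myo1f, Arid5a and Esr1 the 3 knockouts lay close together, whereas Gm3650, Wdfy1, Rab37, Gm15446 and Gm47283 had their largest change in 1 line.

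The targeted gene came first as a check of the labels. Mertk (ENSMUSG00000014361, chr2:128698956-128802894, GRCm38) had normalized counts of 2638 to 3924 (median 3230.1) in B6 WT and 919 to 1717 (median 1070.5) in Mertk-/-V1. The Mertk-/-V3 libraries held 444, 1005 and 1106. Every Mertk-/-V1 and Mertk-/-V3 library was below the lowest B6 WT library. In Mertk-/-V2 the values were 5311, 3811 and 3565, 1 above the B6 WT range and the others within it. That line lacks a single exon, so a count over the whole gene does not check its label. The log2 fold changes were -1.46, 0.39 and -2.01 in the V1, V2 and V3 lines, with a pooled value of -1.03 ± 0.18 (SE), adjusted p = 0.0276, and the 3 knockouts differed from each other (adjusted p = 8.62e-04). Tyro3, another TAM receptor, had counts of 2765 to 4161 (median 3303) in B6 WT, 986 to 1871 (median 1468) in Mertk-/-V1, 3851, 2628 and 2783 in Mertk-/-V2 and 2145, 2983 and 3577 in Mertk-/-V3. All 6 Mertk-/-V1 libraries were below the B6 WT range, as were 1 Mertk-/-V2 and 1 Mertk-/-V3 library. The pooled log2 fold change of -0.57 ± 0.15 (SE), adjusted p = 0.302 did not pass the test, and the difference among the knockouts did (adjusted p = 0.0207). Axl, the third receptor, which interferon can induce, had means of 1688 ± 151 in B6 WT (SD, n = 6), 1965 ± 272 in Mertk-/-V1 (SD, n = 6), 1888 ± 183 in Mertk-/-V2 (SD, n = 3) and 1772 ± 314 in Mertk-/-V3 (SD, n = 3), with a pooled value of 0.14 ± 0.09 (SE), adjusted p = 0.851. The bridging ligands did not pass either: Gas6, named after its values were seen, had a pooled log2 fold change of 0.02 and Pros1 of 0.32 (adjusted p = 0.966 and 0.851).

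**Figure D2:**
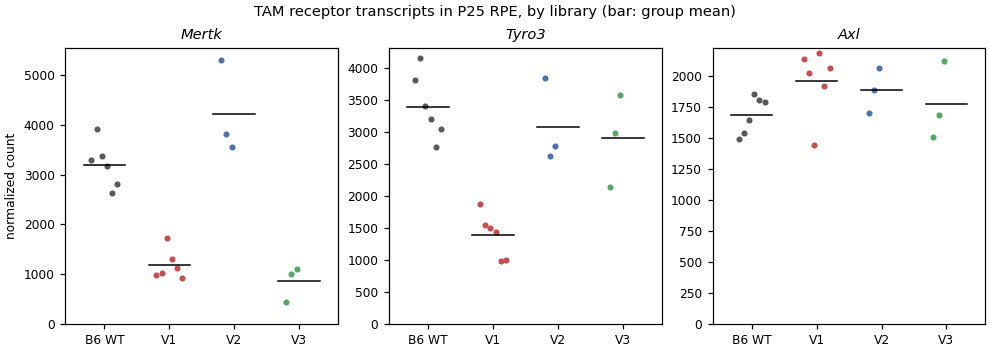
Normalized counts of the 3 TAM receptors in each of the 18 RPE libraries, linear axis from 0, with the group mean as a bar. Mertk is below B6 WT in every V1 and V3 library and not in V2, Tyro3 has its lowest libraries in V1, and the Axl ranges overlap.

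Antiviral interferon effectors made up the largest group of called genes. Of 47 tested members of the antiviral list, 8 rose in the pooled comparison (Trim30a, Apol9b, Ifit1, Ifi44, Mx1, Rtp4, Cmpk2 and Apol9a) and 0 fell, against 0.101% of all genes called higher. At an unadjusted p under 0.05, 30 were higher and 0 lower (3.19% of all genes were higher). In all 3 knockouts 27 of the 47 were higher (23.4% of all genes were). The list's median log2 fold change was 0.45, beside -0.0023 over all genes tested. By knockout the median was 0.63, 0.61 and 0.10 in the V1, V2 and V3 lines. A difference among the knockouts passed the test for 2 members, Apol9a and Ifi27l2a. edgeR called 7 members higher and DESeq2 16.

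Mx1, a dynamin-like GTPase that blocks RNA viruses, changed most by fold among the interferon effectors called. Its normalized counts were 15.7 to 31.5 (median 22.6) in B6 WT, 46.5 to 153 (median 86.01) in Mertk-/-V1, 74.9, 81.5 and 92.04 in Mertk-/-V2 and 102, 59.9 and 32.4 in Mertk-/-V3. All 12 knockout libraries lay above all 6 B6 WT libraries, which held for 0.127% of all genes tested in this direction. The pooled log2 fold change on the log2(normalized count + 1) scale was 1.67 ± 0.28 (SE), adjusted p = 0.018, made of 1.90, 1.80 and 1.31 in the V1, V2 and V3 lines. The C57BL/6 allele of Mx1 carries a deletion and gives no functional protein, so its transcript is read here as an RNA level only.

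Ifit1 (ENSMUSG00000034459, chr19:34640871-34650009) encodes a protein that binds viral RNA caps. Counts were 274 to 443 (median 400.01) in B6 WT, 768 to 1794 (median 1033) in Mertk-/-V1, 895, 894 and 1181 in Mertk-/-V2 and 815, 703 and 519.8 in Mertk-/-V3. The groups did not overlap, and the pooled value was 1.24 ± 0.17 (SE), adjusted p = 0.00363. Trim30a (ENSMUSG00000030921, chr7:104409025-104465193), a tripartite motif protein that dampens Toll-like receptor signalling, had the smallest pooled p of the list. It stood at 112 to 163 (median 133) in B6 WT, 282 to 409 (median 333) in Mertk-/-V1, 467, 328 and 430.1 in Mertk-/-V2 and 149, 238 and 261 in Mertk-/-V3. Only Mertk-/-V3 replicate 1 lay inside the B6 WT range, and the pooled log2 fold change was 1.20 ± 0.14 (SE), adjusted p = 8.87e-04.

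Promoter sequence is shown for these genes because the group is defined by its interferon response. The letters searched were GAAANNGAAA and its reverse complement TTTCNNTTTC, the core of the interferon-stimulated response element, in the 250 bases before each start in the RefSeq promoter table (GRCm38.p6). Overlapping matches were both kept. The fixed letters of each match are in capitals, 5′ to 3′ on the gene's strand, and the matches are a description of these windows only.
Ifit1, chr19:34640769-34640829, plus strand: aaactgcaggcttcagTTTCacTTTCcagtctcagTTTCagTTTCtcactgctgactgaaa
Trim30a, chr7:104465204-104465245, minus strand: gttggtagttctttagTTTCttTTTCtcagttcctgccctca
Apol9a, chr15:77411117-77411146, minus strand: gtgagacTTTCagTTTCcaTTTCccagttg
Apol9b, chr15:77729028-77729057, plus strand: gtgagacTTTCagTTTCcaTTTCccagttg
Tgtp1, chr11:48992304-48992333, minus strand: tccaggaatcGAAActGAAAcctacctgac
Irgm1, chr11:48871428-48871457, minus strand: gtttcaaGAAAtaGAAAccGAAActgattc
Ifit1 held 2 separate matches, starting 104 and 85 bases before the start, and Trim30a 1 match at 36 bases; a second Trim30a entry held none. In Apol9a, Apol9b and Irgm1 a pair of matches shares its middle letters. The motif was present before 936 of 27025 genes in the table (3.46%) and 18 of the 35 antiviral list members with an entry (51.4%). It was present before 11 of the 12 guanylate-binding proteins and immunity-related GTPases with an entry (91.7%). The other lists held it before 2 of 15 macrophage and microglia genes (13.3%), 1 of 13 complement genes (7.69%) and 0 of 12 gliosis genes. Of the 19 genes called higher, 12 had an entry and 5 held the motif: Ifit1, Trim30a, Apol9a, Apol9b and Esr1. The entries of Cmpk2, Fcgr1 and Cyth4 did not hold these letters.

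The Apol9a and Apol9b stretches are letter for letter the same. These genes, both on chromosome 15, encode near-identical apolipoproteins L, and reads may be split between them, so their values are uncertain as separate genes. Apol9b stood at 10.6 to 24.2 (median 17.5) in B6 WT, 37.7 to 66.3 (median 50.1) in Mertk-/-V1, 83.8, 84.02 and 112 in Mertk-/-V2 and 24.5, 43.6 and 27.8 in Mertk-/-V3, with no overlap, by a narrow margin in Mertk-/-V3, and a pooled log2 fold change of 1.55 ± 0.19 (SE), adjusted p = 0.00191. Apol9a gave 1.23 ± 0.23 (SE), adjusted p = 0.0418, with log2 fold changes of 1.12, 2.45 and 0.13 in the V1, V2 and V3 lines. Its difference among the knockouts passed the test (adjusted p = 0.0218), and 9 of 12 knockout libraries were above the highest B6 WT library.

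Ifi44, an interferon-induced antiviral protein, had counts of 33.04 to 77.3 (median 47.3) in B6 WT, 101 to 226 (median 119.6) in Mertk-/-V1, 163, 204 and 228 in Mertk-/-V2 and 64.7, 107 and 69.4 in Mertk-/-V3. Of the 12 knockout libraries 10 were above the highest B6 WT library, and the pooled value was 1.36 ± 0.19 (SE), adjusted p = 0.00464. Cmpk2, a mitochondrial nucleotide kinase next to the antiviral gene Rsad2, gave 127 to 179 (median 158) in B6 WT, 222 to 532 (median 379) in Mertk-/-V1, 392, 356 and 367 in Mertk-/-V2 and 354, 216 and 180.5 in Mertk-/-V3. Mertk-/-V3 replicate 3 lay just above the highest B6 WT library, and the pooled value was 1.04 ± 0.18 (SE), adjusted p = 0.0276. Rtp4, an interferon-induced chaperone of G protein-coupled receptors, had a pooled value of 0.84 ± 0.14 (SE), adjusted p = 0.0196, from 1.11, 1.20 and 0.21 in the V1, V2 and V3 lines. In Mertk-/-V3 its values of 207, 291 and 207 lay within the B6 WT range of 156 to 232 in all but replicate 2.

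Among members that did not pass the adjusted test, those given next were picked after their values were seen. Mx2, a relative of Mx1, was near-even across the lines, with log2 fold changes of 1.08, 0.83 and 0.87 in Mertk-/-V1, V2 and V3 (pooled 0.93, adjusted p = 0.0697). Irf9, a subunit of the interferon-activated transcription factor complex, was smaller but of 1 sign, with a pooled value of 0.43 (adjusted p = 0.0755). Isg15, a ubiquitin-like modifier, and Rsad2, the antiviral enzyme viperin, had their larger values in Mertk-/-V1 and V2: 0.99, 1.93 and -0.12 for Isg15 and 1.43, 1.65 and 0.10 for Rsad2 in Mertk-/-V1, V2 and V3 (adjusted p = 0.204 and 0.497). The RNA sensors Ddx58 and Ifih1 had pooled values of 0.12 and 0.05.

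**Figure D3:**
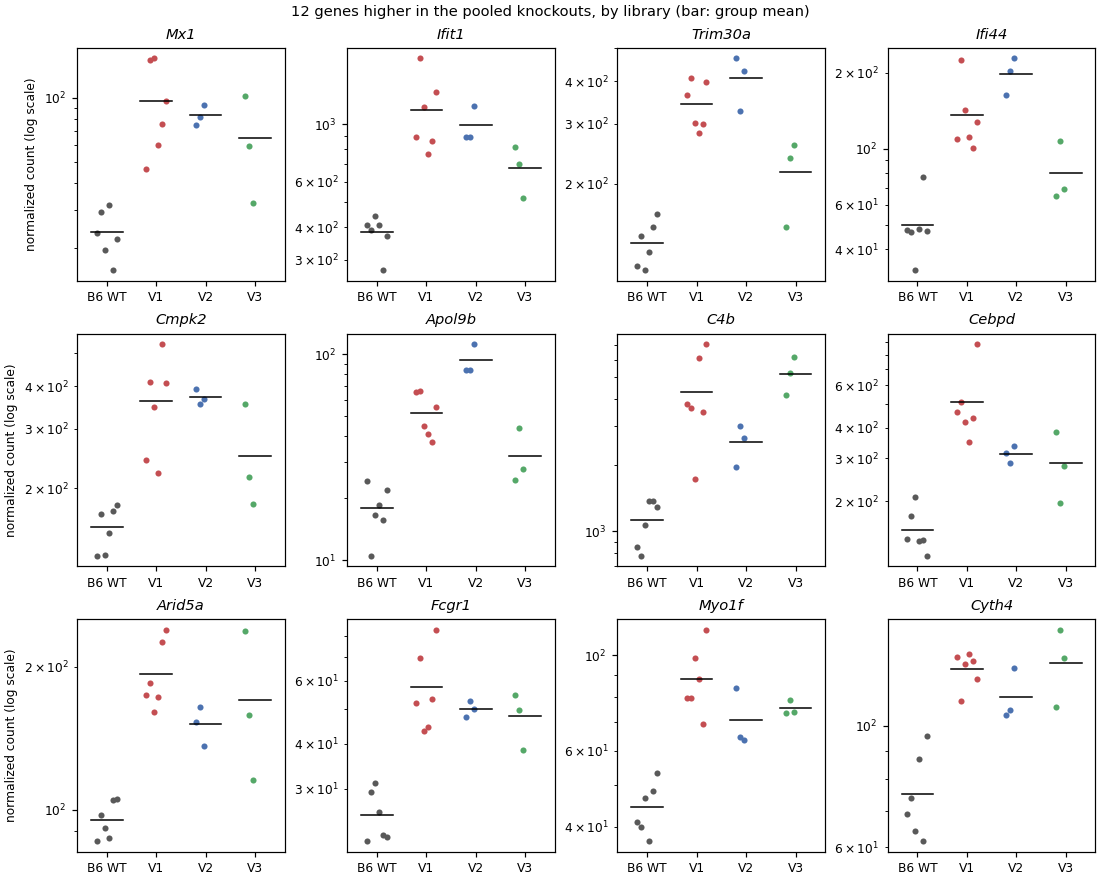
Normalized counts (log axis) of the 12 named higher genes in each of the 18 RPE libraries, with the group mean as a bar. The 12 knockout libraries lie above the 6 B6 WT libraries for Mx1, Ifit1, Cmpk2, Apol9b, C4b, Arid5a, Fcgr1, Myo1f and Cyth4.

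The interferons themselves were scarce. Ifnl2 and Ifnl3, the type III interferons, were listed at 0 in all 6 B6 WT and all 3 Mertk-/-V3 libraries. In Mertk-/-V2 Ifnl2 reached 95.1, 29.7 and 69.7 and Ifnl3 92.7, 50.1 and 49.03 normalized counts, and among the Mertk-/-V1 libraries replicate 1 held 12.8 and 23.3. They passed the filter on low values through the libraries where they were high and could be counted for each other, since they are near-identical copies. Ifnb1, named after its values were seen and too low to be tested, was listed at 0 in B6 WT and at 14.5, 5.94 and 20.6 in Mertk-/-V2. The receptor chain Ifnar1, also picked afterwards, had a pooled log2 fold change of 0.02 (adjusted p = 0.943). None of the 8 tested ligands and receptors was called by limma, edgeR or DESeq2. The 2 with an unadjusted p under 0.05 were Ifnl2 and Ifnl3, which were tested only because of the libraries where they were high. Their p is therefore no support for a change. A difference among the 3 knockouts passed the test for 2 of the 8. For a gene that entered through the line where it was high, that result is no support either.

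A complement gene had the largest pooled change among the 20 genes called with the same sign in all 3 lines. C4b (ENSMUSG00000073418, chr17:34728380-34743882), the classical-pathway component that tags surfaces for clearance, had normalized counts of 777 to 1375 (median 1182) in B6 WT, 1735 to 7084 (median 3723) in Mertk-/-V1, 1961, 3007 and 2666 in Mertk-/-V2 and 4142, 5254 and 6165 in Mertk-/-V3. Every knockout library exceeded every B6 WT library, and the pooled log2 fold change was 1.75 ± 0.24 (SE), adjusted p = 0.0037, made of 1.84, 1.19 and 2.22 in the V1, V2 and V3 lines. Cfi, the protease that cleaves C3b and C4b, stood at 13.6 to 26.96 (median 22.2) in B6 WT, 51.4 to 166 (median 87.8) in Mertk-/-V1, 30.6, 21.2 and 39.6 in Mertk-/-V2 and 122, 83.5 and 168 in Mertk-/-V3. One Mertk-/-V2 library lay inside the B6 WT range, and the pooled value was 1.69 ± 0.24 (SE), adjusted p = 0.00462. Of 19 complement genes tested these were the 2 that rose and 0 fell, against 0.101% of all genes called higher. At an unadjusted p under 0.05, 10 were higher (3.19% of all genes were), and the list's median was 0.50. A difference among the knockouts passed the test for 1 of the 19. DESeq2 called 7 of them.

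The C1q subunits, which start the classical pathway and in the eye come mainly from microglia and macrophages, did not pass the adjusted test. C1qa, C1qb and C1qc had pooled log2 fold changes of 0.81, 0.77 and 0.88 (adjusted p = 0.134, 0.0697 and 0.0819). For C1qb all 12 knockout libraries, at 295 to 728, were above the highest B6 WT library at 263. C3ar1, the receptor of the C3a fragment, gave 0.71 ± 0.14 (SE), adjusted p = 0.0697. The C1 inhibitor Serping1 gave 0.47, 0.56 and 0.47 in Mertk-/-V1, V2 and V3 (pooled adjusted p = 0.204).

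Of the Fc receptors, Fcgr1 rose, and a difference among the 3 lines did not pass the test (adjusted p = 0.774). Fcgr1 (ENSMUSG00000015947, chr3:96282909-96293969), the high-affinity receptor for IgG, had counts of 21.4 to 31.1 (median 24.1) in B6 WT, 43.5 to 83.2 (median 52.8) in Mertk-/-V1, 47.5, 52.6 and 49.9 in Mertk-/-V2 and 54.7, 49.9 and 38.6 in Mertk-/-V3. No knockout library reached down to the B6 WT range, the pooled log2 fold change was 1.00 ± 0.16 (SE), adjusted p = 0.0131, and the values were 1.13, 0.97 and 0.89 in the V1, V2 and V3 lines. Its largest single-knockout p was 8.23e-04. Fcer1g, the signalling chain that Fcgr1 needs, rose by 0.60 ± 0.11 (SE), adjusted p = 0.0354, but with 72.5, 81.1 and 66.3 in Mertk-/-V3 against 53.7 to 77.7 in B6 WT, where 2 of those 3 libraries overlapped. The low-affinity receptors Fcgr2b, Fcgr3 and Fcgr4, named after their values were seen, had pooled values of 0.64, 0.82 and 1.28 (adjusted p = 0.136, 0.0736 and 0.152).

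A pair of genes of the leukocyte cytoskeleton and membrane traffic also rose. Myo1f, a class I myosin of immune cells, stood at 37 to 53.4 (median 43.8) in B6 WT, 69.2 to 115 (median 83.9) in Mertk-/-V1, 83.8, 64.5 and 63.7 in Mertk-/-V2 and 73.6, 78.6 and 74.03 in Mertk-/-V3, with a pooled value of 0.80 ± 0.13 (SE), adjusted p = 0.0132. Cyth4, an exchange factor for ARF GTPases found mainly in blood cells, stood at 61.6 to 95.8 (median 71.4) in B6 WT, 111 to 135 (median 130.4) in Mertk-/-V1, 105, 107 and 127 in Mertk-/-V2 and 108, 149.6 and 133 in Mertk-/-V3, with a pooled value of 0.71 ± 0.11 (SE), adjusted p = 0.0132. Neither overlapped with B6 WT.

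Markers of macrophages and microglia were also higher by value in the knockouts. Of 21 tested list members 1 (Fcer1g) rose and 0 fell, against 0.101% of all genes called higher. At an unadjusted p under 0.05, 13 were higher (3.19% of all genes were). In all 3 knockouts 15 were higher (23.4% of all genes were). The median was 0.64, and 4 of the 21 had a pooled value below 0. The mean log2 level of the list was 6.93 to 7.43 in B6 WT, 7.74 to 8.14 in Mertk-/-V1, 7.55 to 7.83 in Mertk-/-V2 and 7.37 to 7.59 in Mertk-/-V3, and 11 of 12 knockout libraries were above the highest B6 WT library. The summed level overlapped, from 9907 to 14672 for B6 WT, with 9078 to 14447 for Mertk-/-V1, 12162 to 13998 for Mertk-/-V2 and 9073 to 14878 for Mertk-/-V3 (normalized counts). Most of that sum was Csf1r (mean 7173), the receptor for the macrophage growth factor, with a pooled log2 fold change of -0.17. DESeq2 called 9 of the 21 and edgeR 0, and none of the 21 was listed at 0 throughout.

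The defining microglial markers were low but present. Trem2, a lipid receptor of phagocytic microglia, had a mean of 33.6 ± 2.23 in B6 WT (SD, n = 6), 86.4 ± 36.8 in Mertk-/-V1 (SD, n = 6), 69.3 ± 6.91 in Mertk-/-V2 (SD, n = 3) and 65.4 ± 11.8 in Mertk-/-V3 (SD, n = 3), with no overlap and a pooled value of 1.06 ± 0.21 (SE), adjusted p = 0.0645. Ctss, a lysosomal protease of antigen-presenting cells, gave 0.83 ± 0.16 (SE), adjusted p = 0.0645, also without overlap. Cx3cr1, P2ry12 and Tmem119 had pooled values of 0.66, 0.77 and 0.32 (adjusted p = 0.29, 0.851 and 0.851). Aif1, which encodes IBA1, gave 1.11, 0.98 and 0.80 in Mertk-/-V1, V2 and V3. Of 16 genes of disease-associated microglia 0 were called by limma or edgeR and 1 by DESeq2. At an unadjusted p under 0.05, 5 were higher and 0 lower (3.19% and 1.67% of all genes were). In all 3 knockouts 5 were higher and 1 lower (23.4% and 15.6% of all genes were). The list did not lean one way: 8 members had a pooled value above 0 and 8 below, the median was -0.0024, and by knockout it was -0.0053, 0.33 and -0.13 in the V1, V2 and V3 lines. The values of smallest p were Clec7a at 0.84, Csf1 at 0.45, Spp1 at 0.55 and Cst7 at 1.05 (adjusted p = 0.0736, 0.321, 0.684 and 0.851). The lowest were the galectin Lgals3 at -0.46 and the lysosomal protease Ctsd at -0.30 (adjusted p = 0.851 and 0.851), both named after their values were seen.

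With the mean level of the macrophage and microglia list as a covariate, an alternative chosen after seeing the data, 0 genes were called by limma, and 1869 had an unadjusted p under 0.05. The pooled log2 fold change was then 1.08 (adjusted p = 0.501) for Mx1, 0.67 (adjusted p = 0.499) for Ifit1 and 1.32 (adjusted p = 0.499) for Trim30a. It was 1.36 (adjusted p = 0.499) for C4b, 0.47 (adjusted p = 0.558) for Fcgr1 and 0.65 (adjusted p = 0.508) for Cebpd. Since the list stood above the B6 WT range in 11 of 12 knockout libraries, its level and the knockout state can hardly be told apart in this fit, and the part of these cells in each result was not tested.

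**Figure D4:**
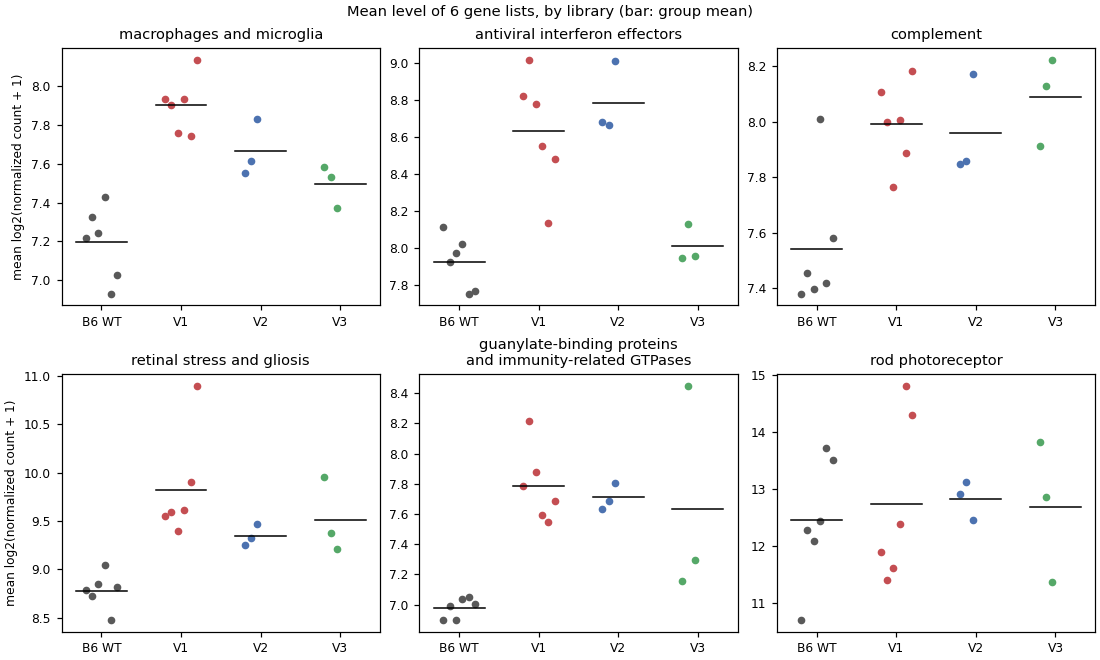
Mean log2(normalized count + 1) over the tested members of 6 gene lists in each of the 18 RPE libraries, with the group mean as a bar. All 12 knockout libraries lie above B6 WT for the gliosis list and for the guanylate-binding proteins and immunity-related GTPases, 11 for macrophages and microglia, 10 for antiviral effectors, 5 for complement and 3 for rods.

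Stress and gliosis genes had the highest median of the 40 lists, at 0.85, with 0.99, 0.64 and 0.70 in the V1, V2 and V3 lines. Of 12 tested members 1 rose (Cebpd) and 0 fell, against 0.101% of all genes called higher. At an unadjusted p under 0.05, 8 were higher (3.19% of all genes were). In all 3 lines 10 were higher (23.4% of all genes were). Cebpd, a transcription factor of the acute-phase response, had counts of 119 to 208 (median 139) in B6 WT, 351 to 885 (median 454) in Mertk-/-V1, 315, 286 and 337 in Mertk-/-V2 and 386, 196 and 279 in Mertk-/-V3. Only Mertk-/-V3 replicate 2 lay inside the B6 WT range, and the pooled value was 1.21 ± 0.18 (SE), adjusted p = 0.00887. Socs3, the feedback inhibitor of STAT3 signalling, stood at 162 to 224 (median 195) in B6 WT, 388 to 1184 (median 449.9) in Mertk-/-V1, 227, 350.5 and 324 in Mertk-/-V2 and 269.96, 243 and 427 in Mertk-/-V3. The groups did not overlap, but the pooled value of 0.94 ± 0.21 (SE), adjusted p = 0.129 did not pass the test.

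Serpina3n, an acute-phase serpin of reactive astrocytes and Müller glia, was higher by value in 11 of 12 knockout libraries than in any B6 WT library, with a pooled value of 0.76 ± 0.22 (SE), adjusted p = 0.38. Lcn2, an iron-binding acute-phase protein, gave 1.30 ± 0.47 (SE), adjusted p = 0.822, with 1 Mertk-/-V1 library at 1869.97 and the B6 WT libraries at 52.4 to 128. Picked after their values were seen, Gfap, the intermediate filament of reactive Müller glia, gave 1.15 ± 0.43 (SE), adjusted p = 0.851, and Edn2, the endothelin that stressed photoreceptors release, gave 1.84 ± 0.83 (SE), adjusted p = 0.851. These genes are expressed in the neural retina, and the rod genes that mark how much of it came along had a pooled median of 0.33, with 0 of 19 called. In all 3 lines 17 of the 19 rod genes were higher (23.4% of all genes were). So were 9 of 10 cone genes and 11 of 13 genes of inner retinal neurons, with pooled medians of 0.39 and 0.39. In these 3 lists 0 genes were called and 0 were higher at an unadjusted p under 0.05. With the rod list as a covariate the gliosis median was 0.88, and with the macrophage list as a covariate it was 0.18. The macrophage list stood above the B6 WT range in 11 of 12 knockout libraries. The macrophage fit can therefore hardly separate the level of that list from the knockout state. The part of neural retina or of macrophages in the gliosis values was not tested.

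The remaining regulators rose as well, each with an unadjusted p under 0.05 in every line. Arid5a, an RNA-binding protein that stabilizes inflammatory mRNAs, stood at 85.8 to 105 (median 94.3) in B6 WT, 160.4 to 239.5 (median 179) in Mertk-/-V1, 153, 165 and 136 in Mertk-/-V2 and 238, 158 and 116 in Mertk-/-V3, with a pooled value of 0.81 ± 0.14 (SE), adjusted p = 0.0189. Esr1, estrogen receptor alpha, had its lowest change in Mertk-/-V1. Its counts were 59.2 to 72.1 (median 63.2) in B6 WT, 75.9 to 109 (median 87.1) in Mertk-/-V1, 95.9, 91.7 and 110.1 in Mertk-/-V2 and 109, 108 and 168 in Mertk-/-V3, and the pooled value was 0.69 ± 0.12 (SE), adjusted p = 0.0189. Both genes were without overlap between knockouts and B6 WT.

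The guanylate-binding proteins and immunity-related GTPases, which interferon-gamma induces to attack intracellular pathogens, had no single call in limma. Of 16 tested 0 were called by limma or edgeR and 4 by DESeq2, and 14 were higher at an unadjusted p under 0.05 (3.19% of all genes were). In all 3 knockouts 14 were higher (23.4% of all genes were). The median was 0.69, with 0.79, 0.58 and 0.65 in the V1, V2 and V3 lines. Tgtp1 had counts of 48.1 to 66.8 (median 49.96) in B6 WT, 90.5 to 309.9 (median 137) in Mertk-/-V1, 83.8, 110.3 and 88.6 in Mertk-/-V2 and 102, 514 and 108 in Mertk-/-V3. Every knockout library was above every B6 WT library, Mertk-/-V3 replicate 2 by far the most, and the pooled value was 1.35 ± 0.33 (SE), adjusted p = 0.194. Gm12250 (the GTPase Irgb10) gave 1.41 ± 0.31 (SE), adjusted p = 0.123, Gbp9 gave 0.71 ± 0.18 (SE), adjusted p = 0.223, and Irgm1, a regulator of the family, gave 0.46 ± 0.12 (SE), adjusted p = 0.277. Several of these GTPases are close copies of each other, among which reads may be split.

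Nlrc5, the activator of MHC class I genes, gave 1.00 ± 0.26 (SE), adjusted p = 0.274, with log2 fold changes of 0.88, 0.79 and 1.34 in the V1, V2 and V3 lines. Of the 19 tested genes of class I presentation 0 were called by limma, edgeR or DESeq2. At an unadjusted p under 0.05, 4 were higher (3.19% of all genes were), and the median was 0.02. The nonclassical genes H2-Q7, H2-Q4 and H2-Q6 had pooled values of 1.29, 0.43 and 1.22 (adjusted p = 0.759, 0.783 and 0.851) and are close copies. The classical genes H2-K1 and H2-D1 had pooled values of 0.26 and -0.06 (adjusted p = 0.851 and 0.947).

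Several pooled calls had their change in a single line or a pair of lines. Wdfy1, a phosphoinositide-binding adaptor of Toll-like receptor 3 signalling, stood at 307 to 448 (median 345) in B6 WT, 295 to 584 (median 415) in Mertk-/-V1, 384, 459.97 and 351 in Mertk-/-V2 and 1776, 1637 and 1880.2 in Mertk-/-V3. The knockouts differed from each other (adjusted p = 3.15e-05), and the pooled value of 0.87 ± 0.14 (SE), adjusted p = 0.0132 averages 0.18, 0.13 and 2.29 in Mertk-/-V1, V2 and V3. Gm3650, annotated as an unprocessed pseudogene, was at 126 to 167 (median 152) in Mertk-/-V1, against 4.86 to 9.25 (median 8.03) in B6 WT, 12.1, 11.03 and 8.60 in Mertk-/-V2 and 6.69, 12.5 and 9.25 in Mertk-/-V3 (pooled 1.65 ± 0.17 (SE), adjusted p = 2.50e-04; among knockouts adjusted p = 2.67e-08). As a pseudogene it may share reads with its parent gene.

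Rab37 (ENSMUSG00000020732, chr11:115091431-115162236), a small GTPase of secretory vesicles, was the single called lower gene with the same sign in all 3 lines. Its counts were 1685 to 2481 (median 2196) in B6 WT, 275 to 470.2 (median 361) in Mertk-/-V1, 2434, 1580.2 and 1736 in Mertk-/-V2 and 1108, 2288 and 2647 in Mertk-/-V3. The pooled value was -0.97 ± 0.17 (SE), adjusted p = 0.0327, with -2.56, -0.18 and -0.18 in the V1, V2 and V3 lines, and the knockouts differed (adjusted p = 2.23e-05). Without the 6 rod-rich libraries its value in Mertk-/-V3 was 0.21, so the shared sign did not hold there. The other lower calls did not have the same sign in all lines. Gm15446 was at 1.12, 1.25 and 3.08 in Mertk-/-V3 against 239 to 421 (median 269.96) in B6 WT. Gm47283, annotated on chromosome Y, was at 2.42, 0 and 0 in Mertk-/-V2 against 268 to 579 (median 324) in B6 WT. The 4 Y-linked list genes did not fall with it, with a median of -0.07 in Mertk-/-V2. In B6 WT macrophages grown from bone marrow its mean was 284, where Eif2s3y, Ddx3y, Uty and Kdm5d were at 0. Gm15247, an antisense gene on chromosome X whose reads cannot be told from those of its partner unless strand was counted, was at 0, 0 and 0.86 in Mertk-/-V2 and 0, 4.99 and 1.54 in Mertk-/-V3 against 12.9 to 28.3 (median 21.4) in B6 WT. For these 3 the pooled value averages lines near B6 WT with lines near 0, and no fold is given. Over all genes, a difference among the knockouts passed the test in 40 (0.212%), and 8 of the 24 pooled calls were among them. That count was 24 without Mertk-/-V2 replicate 1, 22 without Mertk-/-V3 replicate 2 and 89 without Mertk-/-V3 replicate 1.

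On the lower side no gene passed both the adjusted test and the condition on each line. The 5 genes with an unadjusted p under 0.05 in each were Pigg, Ino80b, Hyou1, Tbx18 and Gm6467. Pigg, an ethanolamine phosphate transferase of the GPI anchor pathway, came nearest. Its counts were 942 to 1041 (median 1006) in B6 WT, 748 to 902 (median 840.3) in Mertk-/-V1, 968, 852 and 834 in Mertk-/-V2 and 775, 818 and 834 in Mertk-/-V3. Of 12 knockout libraries 11 were below the lowest B6 WT library, and the pooled value was -0.26 ± 0.05 (SE), adjusted p = 0.087. Hyou1, an endoplasmic reticulum chaperone, gave -0.22 ± 0.05 (SE), adjusted p = 0.189, and the related chaperone Hspa5 (BiP) gave -0.28 (adjusted p = 0.779). Tbx18, a T-box factor of mural and mesenchymal cells, gave -0.81 ± 0.24 (SE), adjusted p = 0.451.

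Of the other same-signed genes lower by value, several had their largest difference in Mertk-/-V1. AA467197, also known as Nmes1, stood at 113 to 340.4 (median 188) in B6 WT, 6.07 to 59.4 (median 16.9) in Mertk-/-V1, 98.3, 62.8 and 154 in Mertk-/-V2 and 139, 71.1 and 125 in Mertk-/-V3 (pooled -1.65 ± 0.41 (SE), adjusted p = 0.204). Vipr2, a receptor for vasoactive intestinal peptide, gave -0.78, -0.11 and -0.16 in Mertk-/-V1, V2 and V3 (adjusted p = 0.246). Ins2, the insulin gene, gave -3.25, -0.44 and -1.16, and Prlr, the prolactin receptor, gave -1.19, -0.16 and -0.29 (adjusted p = 0.321 and 0.477). Duox2, a hydrogen peroxide-producing oxidase, gave -1.47, -1.34 and -0.65, and Stox1 gave -1.36, -0.50 and -0.74 (adjusted p = 0.327 and 0.367). Mre11a, a nuclease of double-strand break repair, gave -0.08, -0.20 and -0.29 (adjusted p = 0.321).

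Beyond the called genes, the 77 genes with an unadjusted p under 0.05 in every line included further receptors of myeloid cells, none of which passed the adjusted test, and those named next were picked after their values were seen. Tlr7, an endosomal receptor for single-stranded RNA, had log2 fold changes of 1.08, 1.00 and 0.70 in Mertk-/-V1, V2 and V3 and no overlap with B6 WT (adjusted p = 0.0755). Cd33, a sialic acid receptor, gave 0.78, 0.69 and 0.96 (adjusted p = 0.0697), and Msr1, a scavenger receptor, gave 1.13, 1.496 and 1.03 (adjusted p = 0.269). Gpr34, a lysophosphatidylserine receptor of microglia, gave 1.13, 0.86 and 0.90 (adjusted p = 0.479). In all, 24 genes had every knockout library above every B6 WT library (0.127%), 10 of them called, and 0 had every knockout library below.

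Genes of the RPE's own work were not called. Of 23 tested genes of outer segment binding and engulfment, 12 of the visual cycle, 14 of melanin and melanosomes and 16 of channels and transporters, 0 were called in either direction by limma, edgeR or DESeq2. At an unadjusted p under 0.05 there were 0 higher and 1 lower for engulfment, 0 and 0 for the visual cycle, 0 and 0 for melanin, and 0 and 1 for transport. The pooled medians were -0.10, -0.33, -0.04 and -0.26. In Mertk-/-V1, V2 and V3 they were -0.67, 0.09 and -0.37 for the visual cycle and -0.21, 0.26 and -0.20 for melanin. They were -0.31, 0.0025 and -0.24 for transport, and below 0 in all 3 lines for engulfment. Lower in all 3 lines were 8 of 23 engulfment, 4 of 12 visual cycle, 2 of 14 melanin and 7 of 16 transport genes (15.6% of all genes were). Higher in all 3 were 1, 1, 0 and 3 in the same order (23.4% of all genes were). Within engulfment, the integrin chain Itgav, which binds outer segments through bridging proteins, had a pooled value of -0.42, and the kinase Src -0.25 (adjusted p = 0.851 and 0.851). Rpe65 gave -1.25, -0.05 and -0.58 in Mertk-/-V1, V2 and V3, and Slc16a1, the lactate transporter MCT1, gave -0.80, -0.08 and -0.55 (adjusted p = 0.851 and 0.851). Rpe65 was at 21758 and 13235 in Mertk-/-V1 replicates 5 and 6, where rod transcripts summed to 1123530 and 698862 normalized counts, and the part of this in the lower Rpe65 values was not tested.

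Metabolic and housekeeping lists had medians between -0.18 and 0.11 and held 0 calls by limma, edgeR or DESeq2. This held for 83 subunits of oxidative phosphorylation (median -0.09), 86 ribosomal proteins (-0.14), 33 lysosomal genes (-0.06), 24 genes of sterol synthesis (-0.14), 24 PPAR and fatty acid oxidation genes (-0.14), 18 glycolytic genes (0.11), 19 NRF2 targets (-0.18) and 22 genes of the integrated stress response (-0.04). At an unadjusted p under 0.05 each of these lists held 0 to 2 higher and 0 to 3 lower members. Sterol synthesis differed in sign between lines, with medians of 0.38, -0.24 and -0.53 in the V1, V2 and V3 lines, and a difference among the knockouts passed the test for 5 of its 24 genes. In the same order the medians were -0.03, 0.17 and -0.55 for ribosomal proteins and -0.18, 0.23 and -0.32 for oxidative phosphorylation. They were -0.30, 0.11 and -0.25 for PPAR and fatty acid oxidation genes. Glycolytic genes and NRF2 targets had medians of 1 sign in all 3 lines. Higher in all 3 lines were 9 of the 18 glycolytic genes and 1 of the 19 NRF2 targets (23.4% of all genes were). Lower in all 3 were 0 and 8 (15.6% of all genes were). The other metabolic and housekeeping lists held 0 to 3 members higher and 0 to 5 lower in all 3 lines. The cell cycle list had the lowest pooled median of all, at -0.51, with 0 of 20 called and 1 lower at an unadjusted p under 0.05. In all 3 lines 11 of its 20 genes were lower and 0 higher (15.6% and 23.4% of all genes were), and 20 of 20 had a pooled value below 0. By line its median was -0.05, -0.53 and -0.83 in Mertk-/-V1, V2 and V3. Immediate early genes, a sign of how tissue was handled, had medians of 0.49, -0.04 and -0.13 in the V1, V2 and V3 lines. Of 26 tested 0 were called and 4 were higher at an unadjusted p under 0.05 (3.19% of all genes were).

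**Figure D5:**
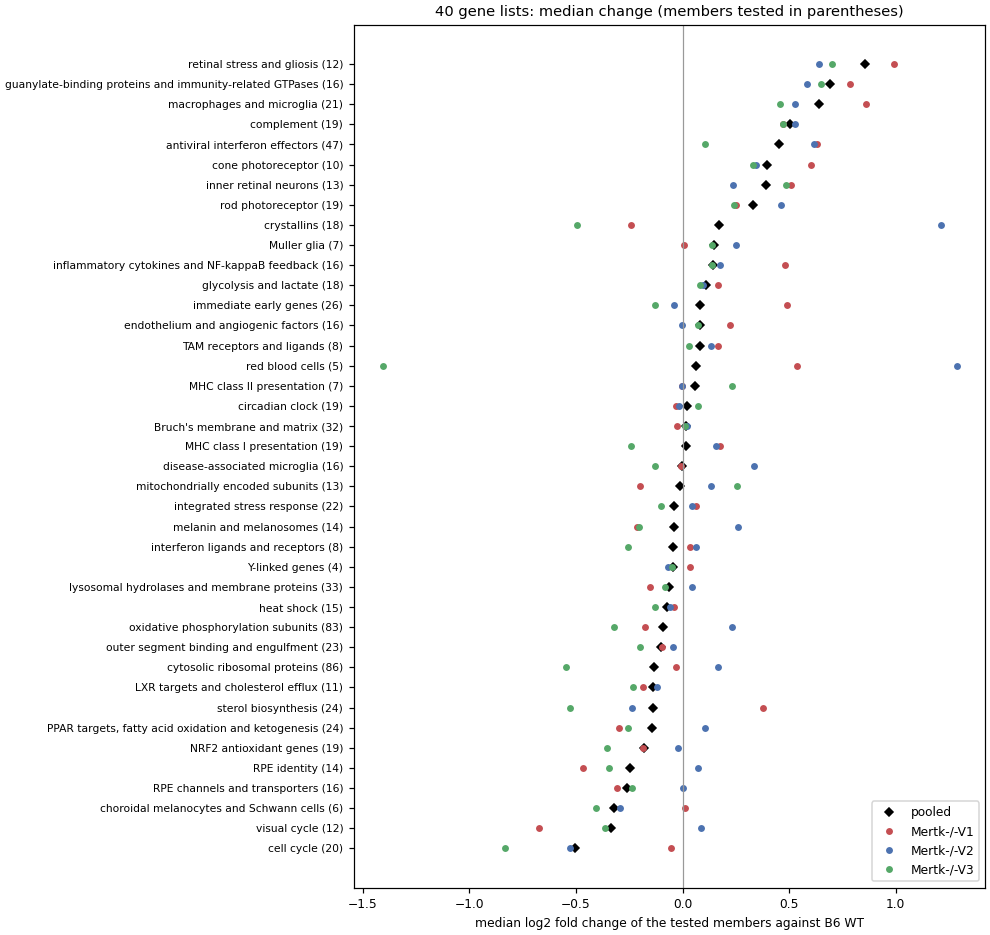
Median log2 fold change against B6 WT over the tested members of 40 gene lists, for the pooled knockouts (black diamonds) and each knockout (coloured points). The gliosis, GTPase, macrophage, complement and antiviral lists lie highest, with Mertk-/-V3 close to 0 for the antiviral list, and the cell cycle and visual cycle lists lie lowest.

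The same lines were also profiled as bone marrow-derived macrophages (BMDM), with 3 libraries a group and a separately normalized table. Of 13420 genes tested there, 892 (6.65%) were called in the pooled comparison, 476 (3.55%) of them higher and 416 (3.1%) lower. Of the 20 genes called with the same sign in RPE, 17 could be tested in BMDM, 4 were called higher (Mx1, Ifit1, Cyth4 and Wdfy1), 0 lower, and 13 had a positive value. Mx1 had means of 41.9 normalized counts in B6 WT and 124, 112 and 90.8 in the 3 knockouts, with a pooled log2 fold change of 1.41 ± 0.32, adjusted p = 0.0219. Ifit1 went from 37.3 to 110.02, 106 and 103, with 1.41 ± 0.33, adjusted p = 0.0246. For Wdfy1 the means were 189.8 in B6 WT and 254, 236 and 1179 in Mertk-/-V1, V2 and V3. It was thus higher in all 3 lines, and most in the line that carried it in RPE. Cyth4 had a smaller pooled value than in RPE, at 0.17 ± 0.03, adjusted p = 0.0119. Fcgr1, Fcer1g and Myo1f, abundant in macrophages, had pooled values near 0 there: 0.14 ± 0.07, adjusted p = 0.254 for Fcgr1, -0.09 ± 0.04, adjusted p = 0.269 for Fcer1g and -0.03 ± 0.04, adjusted p = 0.66 for Myo1f. Of the antiviral list 3 of 45 tested members were called higher in BMDM, with a median of 0.42, while the complement and macrophage lists had medians of 0.12 and -0.05. RPE and BMDM were not tested against each other.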

How the data were processed

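RNA was prepared by the authors from RPE dislodged from posterior eyecups of P25 mice, poly(A)-selected and sequenced on an Illumina NovaSeq. Per the study's methods and the submitters' processing notes, reads were trimmed, aligned to GRCm38 (mm10) with STAR and normalized with DESeq2, and the deposited RPE table holds normalized counts (signal: read counts divided by a size factor for each library). The read counter, annotation and use of strand are not given in the sources used here. A second deposited table holds the same signal for BMDM. The values are whole multiples of a step in each library, and dividing by it gave whole reads for 100% of values (tolerance 0.01), 14137666 to 34124049 a library.

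Groups and replicate numbers came from the labels, which call the samples biological replicates, and the study's statistical methods count every data point as a separate animal. Genes with a mean normalized count of at least 10 in the 18 RPE libraries were kept (18832 of 55573). limma 3.58.1 (R 4.3.3) was fitted to log2(normalized count + 1) over the 4 groups with an intensity trend. The pooled contrast was the mean of the 3 knockout groups minus B6 WT, and calls had a Benjamini-Hochberg adjusted p under 0.05. A moderated F-test compared the 3 knockouts with each other. Fold changes are on the log2(normalized count + 1) scale, which understates changes of low genes. On the recovered reads edgeR 4.0.16 (quasi-likelihood test) called 22 genes and DESeq2 1.42.0 called 88. The limma fit alone was also run on simulated counts with a single spread and the same change in all 3 lines. Those counts lacked the rod variation of the real libraries, and edgeR and DESeq2 were not run on them.

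Named genes were Mertk, Tyro3 and Axl, the 12 higher and 12 lower genes with the largest value of the smallest single-knockout change (filled by pooled p where fewer were called, predicted genes left out), up to 4 members of each list by pooled p, and every DEG (a called gene past a log2 fold threshold). Rtp4, Apol9a, Esr1, Wdfy1 and the other called genes outside this rule were added once called, and further genes are said to have been picked after their values were seen. C1qa, C1qc, Cx3cr1, P2ry12, Tmem119, Aif1, Serping1, Csf1r, H2-K1 and H2-D1 also fall outside the rule. The comparison, gene lists and tests were chosen with earlier results of these data known. Gene lists were described by counts and medians, with no test of the list. Promoter sequences and coordinates are from RefSeq on GRCm38.p6, and gene coordinates from the annotation of GRCm38. Other normalizations, filters, covariates and sets of libraries were tried as alternatives.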

Additional observations from a re-analysis of the deposited data

Results flagged for a closer look

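The 3 knockouts differed from each other, by limma's F-test across all genes, in 10 of 58 named genes looked at here. Members of other lists also passed this test, as given with those lists, and were not among the 58. The adjusted p was 8.62e-04 for Mertk, 0.0207 for Tyro3, 2.23e-05 for Rab37, 0.0218 for Vipr2 and 0.0218 for Apol9a. It was 3.15e-05 for Wdfy1, 2.67e-08 for Gm3650, 4.34e-09 for Gm15446, 1.49e-07 for Gm47283 and 1.81e-04 for Gm15247. Tyro3, Rab37, Vipr2 and Gm3650 had their largest change from B6 WT in Mertk-/-V1, Apol9a and Gm47283 in Mertk-/-V2, Mertk, Wdfy1 and Gm15446 in Mertk-/-V3, and Gm15247 was near 0 in both Mertk-/-V2 and Mertk-/-V3.

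Single libraries stood far from the other 5 of their group by Dixon's criterion in 15 of 116 groups of 6 libraries examined, over 58 genes, where chance alone would mark about 1 in 20. Among Mertk-/-V1 libraries, 1 stood high for Cebpd (885 normalized counts), Cfi (166), Lcn2 (1870), Ctss (1379), Ifi44 (226), Vipr2 (1183) and Gm15247 (39.8), and 1 stood low for Axl (1444). Mertk-/-V1 replicate 6 was that library for Cebpd, Cfi, Lcn2 and Ctss. Among B6 WT libraries, 1 stood high for Ifi44 (77.3), Ctss (481), Clec7a (59.3), Tgtp1 (66.8), H2-Q7 (110) and H2-Q6 (101), and 1 stood low for Irgm1 (735).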

How the results depend on the processing

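In the order genes called, DEGs, called genes with the same sign in all 3 knockouts, genes at an unadjusted p under 0.05 in all 3, and genes differing among the knockouts, the limma fit gave 24, 9, 20, 77 and 40. A pseudocount of 5, quantile normalization, the Y-linked list as a covariate and edgeR stayed within 1.5 times of these. DESeq2 gave 88, 23, 79 and 81, and 417 among the knockouts. Without a filter the last 2 counts were 138 and 72. Array weights, whose estimation did not converge, gave 2177, 115, 1429, 341 and 12741. Weighting the 12 knockout libraries equally gave 55 called, 15 DEGs and 48 with the same sign. With B6 WT replicates 1 to 3 as controls there were 11 called, 9 with the same sign and 304 at an unadjusted p in all 3. With replicates 4 to 6 these were 3 called, 3 DEGs and 3 with the same sign, and 25 differing among the knockouts. Replicates 1 to 3 of every group gave 8, 5, 6, 206 and 2950. The rod covariate gave 69, 16, 61, 130 and 2148, and the red blood cell covariate 45 called and 37 with the same sign. A pool without Mertk-/-V1 gave 12 called, 10 with the same sign and 174 at an unadjusted p. Without Mertk-/-V2 the last of these was 188, and without Mertk-/-V3 there were 38 called, 17 DEGs, 34 with the same sign and 195. Of alternatives chosen after seeing the data, the macrophage covariate gave 0, 0, 0, 319 and 16, with the rod list added 0, 0, 0, 579 and 1090, a term for replicates 1 to 3 against 4 to 6 gave 365, 39, 337, 320 and 2364, and leaving out the 6 rod-rich libraries 622, 109, 475, 182 and 2232. The causes were not tested.

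The correlation of deviations from the group means was 0.12 to 0.72 over the 6 same-numbered pairs of B6 WT and Mertk-/-V1, all above 0.1, so the numbers pair these groups by that criterion, although 3 of the 12 libraries correlated best with their own number. Over the other 15 same-numbered pairs it was -0.46 to 0.59, with 7 above 0.1, so the numbers do not pair all 4 groups. The fit with a replicate block gave 2661, 168, 2143, 513 and 2987. Leaving out 1 library gave 11 to 32 called, 8 to 12 DEGs, 8 to 28 with the same sign, 46 to 97 at an unadjusted p in all 3 and 22 to 89 among the knockouts. List medians then ran from 0.38 to 0.48 for antiviral effectors, 0.56 to 0.77 for the GTPases, 0.54 to 0.68 for macrophages and microglia, 0.41 to 0.53 for complement and 0.77 to 0.91 for gliosis.

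The antiviral median was 0.66 in a pool without Mertk-/-V3. The macrophage median was 0.44 in replicates 1 to 3, 0.48 without the 6 rod-rich libraries, 0.063 with its own level as covariate and 0.0126 with the rod list added, by construction. With these covariates the complement median was 0.31 and 0.27 and the gliosis median 0.18 and 0.033. Reversed values were Lcn2 at -0.33 and -0.59 and Cst7 at -0.065 and -0.33 with the macrophage covariate without and with the rod list, Prlr at 0.021 with both, and Gm15446 at 0.078 without Mertk-/-V3. Of 58 named genes, 24 were called in the limma fit and could lose a call. Of these 24, 16 lost it with B6 WT replicates 1 to 3 as controls, 22 with replicates 4 to 6 and 24 with the macrophage covariate. Among the named genes not called, 15 gained a call in DESeq2.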
